A study of Mus musculus with 7 samples.

Results

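MHC class I presentation was followed in primary hepatocytes, with and without WDR6, through 10 genes chosen by symbol from the 14819 rows of a read-count table. They are the classical heavy chains *H2-K1* and *H2-D1*, the light chain *B2m*, the peptide transporter genes *Tap1* and *Tap2*, *Tapbp*, the immunoproteasome subunits *Psmb8*, *Psmb9* and *Psmb10*, and the transactivator *Nlrc5*. All 10 were in the table, and all 10 passed the expression filter, as did 14779 genes in all. The lowest count of any of them in any library was 103. The question put to these genes was whether hepatocytes of WDR6-WKO mice differed from WT hepatocytes in the machinery that displays cytosolic peptides at the cell surface.

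Primary hepatocytes were isolated from male WT mice (n = 4) and from male WDR6-WKO mice (n = 3), a line in which CRISPR–Cas9 had removed an exon of *Wdr6* in the whole body. The labels give the genotypes as WT and Wdr6 knockout. Both groups were kept overnight in William's E medium with fetal bovine serum and received no treatment, and the labels give neither age nor strain. The study's methods name purchased C57BL/6J animals aged 7 weeks as the default, without stating the background of the knockout line. Because the deletion is not restricted to hepatocytes, any other liver cell in a WDR6-WKO preparation also lacked *Wdr6*. The labels do not say whether each library came from its own mouse. The study's methods describe its replicates in general as biological rather than technical, without naming these libraries. The p-values below therefore measure the spread between these samples.

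*Wdr6* itself was at 44.0 ± 4.03 CPM (counts scaled to one library size with TMM factors; s.d., n = 4) in WT and at 2.38 ± 0.179 CPM (n = 3) in WDR6-WKO, and the genotype labels hold for all 7 libraries. Total counts ran from 17816913 to 23668940 per library, with the lowest total in WDR6-WKO replicate 3 and the highest in WDR6-WKO replicate 1. WDR6-WKO replicate 3 stood apart: on the second axis of a multidimensional scaling plot of the 500 genes most different between each pair of libraries it lay at 0.73, and the other 6 libraries lay between -0.37 and 0.15. Without it, calls over all genes rose from 1897 to 4233. Results for the class I genes are therefore given with and without that library. For the hepatocyte label 14 markers were looked up, of which 13 were in the table, and none of these was at 0 in any group. Detection alone does not measure the share of hepatocytes in a preparation. *Alb* (albumin), named as a check of identity with its values known, was at 7366 CPM in WT and 6480 CPM in WDR6-WKO, and *Cps1*, a urea cycle enzyme, was at 39.4 and 24.5 CPM.

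In class I presentation, proteasomes cut cytosolic proteins into peptides, the TAP1–TAP2 transporter pumps these into the endoplasmic reticulum, and tapasin (*Tapbp*) holds the transporter and an empty class I molecule together until a peptide fits. The class I molecule is a heavy chain bound to β2-microglobulin (*B2m*), and the complete complex moves to the cell surface, where CD8+ T cells read it. Interferons replace the constitutive catalytic subunits of the proteasome by the inducible subunits *Psmb8*, *Psmb9* and *Psmb10*. NLRC5 is the class I transactivator: it joins RFX, CREB/ATF and NF-Y factors on the W/S, X and Y boxes of class I promoters. Hepatocytes are known for low class I display at rest, which interferon raises.

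In mm10 (GRCm38, GENCODE M21), 7 of the 10 genes lie in the major histocompatibility complex on chromosome 17. They span 1352 kb, in the order *Tapbp*, *H2-K1*, *Psmb9*, *Tap1*, *Psmb8*, *Tap2* and *H2-D1*, from chr17:33915899 to chr17:35267499. *H2-K1* is at chr17:33996017-34000347 (minus strand) and *H2-D1* at chr17:35262730-35267499 (plus strand). Between or beside them lie *Tapbp* (chr17:33915899-33929292), *Tap1* (chr17:34187553-34197225), *Psmb8* (chr17:34197721-34201454) and *Tap2* (chr17:34203527-34216321) on the plus strand and *Psmb9* (chr17:34181987-34187764) on the minus strand. *B2m* lies outside the complex, at chr2:122147686-122153083 (plus strand). *Psmb10* (chr8:105935735-105938444, minus strand) and *Nlrc5* (chr8:94434356-94527272, plus strand) are both on chromosome 8. RefSeq promoters (GRCm38.p6) were found for 8 of the 10 genes, all but *Tap2* and *Nlrc5*, and the 250 bases before the start site were searched on both strands. Those of *H2-K1* (chr17:34000348-34000597, minus strand) and *B2m* (chr2:122147437-122147686, plus strand) are shown because the heavy and the light chain both rose in WDR6-WKO. Capitals mark the X2 core TGACGC, the Y box core CCAAT, which reads ATTGG on the other strand, and the core of the interferon-stimulated response element, a repeat of GAAA around a pair of free bases.

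H2-K1: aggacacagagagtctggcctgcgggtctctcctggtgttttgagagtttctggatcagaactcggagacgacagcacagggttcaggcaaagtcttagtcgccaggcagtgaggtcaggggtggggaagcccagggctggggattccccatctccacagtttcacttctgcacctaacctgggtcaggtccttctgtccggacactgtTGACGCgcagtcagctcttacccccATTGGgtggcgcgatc
B2m: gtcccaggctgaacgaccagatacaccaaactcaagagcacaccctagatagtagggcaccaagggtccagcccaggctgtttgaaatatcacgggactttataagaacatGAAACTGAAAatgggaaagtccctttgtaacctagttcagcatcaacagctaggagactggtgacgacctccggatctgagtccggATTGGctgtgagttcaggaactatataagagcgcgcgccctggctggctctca

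In the *H2-K1* window the X2 core began 41 bases and the Y box core 16 bases before the start site. This window is the first listed of 2 RefSeq entries for *H2-K1*. In the other entry the X2 core began 55 bases before the start site, and Y box cores began 30 and 6 bases before it. The *B2m* window held the interferon-response element core at 139 bases and a Y box core at 53 bases before the start. Over the first listed promoter of 27025 genes, the X2 core was in 6.14%, the Y box core in 34.5% and the interferon-response element core in 3.04%. Among the 8 genes these letters were in 2 (*H2-K1* and *H2-D1*), 6 and 1, respectively. The Y box letters of *Tap1* and *Psmb9* are the same bases read on opposite strands, so 1 site counts for both genes. These counts rest on the RefSeq start sites, and the windows of *Psmb8*, *Psmb9* and *Tapbp* lie inside the genes as GENCODE annotates them. A match describes the letters of the window, and no binding was measured here. The search allowed no mismatch in the named letters, so a variant form of an element was neither marked nor counted. A window without a match is therefore not shown to lack the element. The *H2-D1* window lies inside the first exon of a longer annotated transcript, so only the stretch from X2 core to Y box is compared, at chr17:34000359-34000388 (minus strand) for *H2-K1* and at chr17:35262993-35263022 (plus strand) for *H2-D1*.

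H2-K1: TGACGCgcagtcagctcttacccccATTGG
H2-D1: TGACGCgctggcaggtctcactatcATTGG

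Both stretches are 30 bases long, with 19 bases between the cores, and 23 of the 30 bases are identical.

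All 10 genes had a positive log2 fold change in WDR6-WKO, from 0.07 for *Tapbp* to 0.51 for *Tap1*, with a median of 0.31. Both heavy chains, *B2m*, *Tap1* and *Nlrc5* rose: these 5 passed an adjusted p of 0.05 in edgeR's quasi-likelihood test, and none of the 10 was lower. Over all genes tested, 6.65% were called higher and the median log2 fold change was 0.01. The same 5 genes had WT and WDR6-WKO ranges that did not overlap, with WDR6-WKO higher, which held for 11.8% of all genes tested. The other 5, *Tap2*, *Tapbp* and the immunoproteasome subunits, missed the threshold, while 8 of the 10 were higher at an unadjusted p under 0.05, as were 14.6% of all genes tested. At the thresholds of the study's methods, applied here to the edgeR fit as an unadjusted p under 0.05 with a log2 fold change of at least 0.35, 2 of the 10 were called higher, *Tap1* and *Psmb8*, beside 6.42% of all genes tested.

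**Figure D1:**
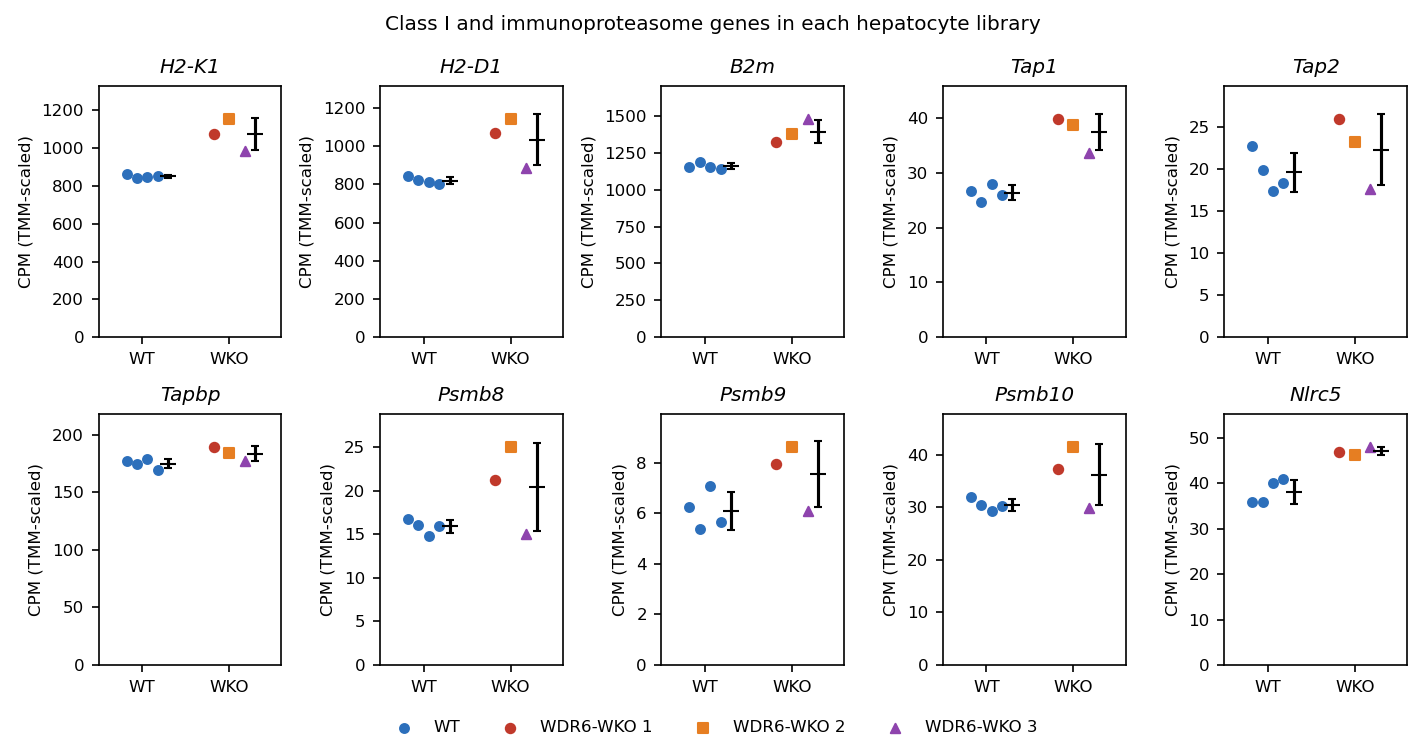
TMM-scaled CPM (y axis, from 0) of each of the 10 genes in the 4 WT and 3 WDR6-WKO (WKO) libraries; points are libraries and bars give the mean ± s.d. of each group. The 3 WDR6-WKO points lie above all WT points for *H2-K1*, *H2-D1*, *B2m*, *Tap1* and *Nlrc5*, while WDR6-WKO replicate 3 lies among the WT points for the other 5 genes.

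The libraries of the knockout were not alike. WDR6-WKO replicates 1 and 2 each lay above all 4 WT libraries for all 10 genes, with a median log2 ratio to the WT mean of 0.36 and 0.44. WDR6-WKO replicate 3 lay above them for the 5 genes called and within the WT range for the other 5, with a median of 0.06. The 4 WT libraries had medians between -0.02 and 0.03. WDR6-WKO replicate 3 was the lowest of the 3 knockout libraries for 8 of the 10 genes, all but *B2m* and *Nlrc5*, which compares with 40.2% of all genes tested. With that library left out, edgeR called 9 of the 10 genes higher, all but *Tapbp*. The median over the 10 genes was then 0.38 on the log2 scale, and 14.5% of all genes tested were called higher.

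**Figure D2:**
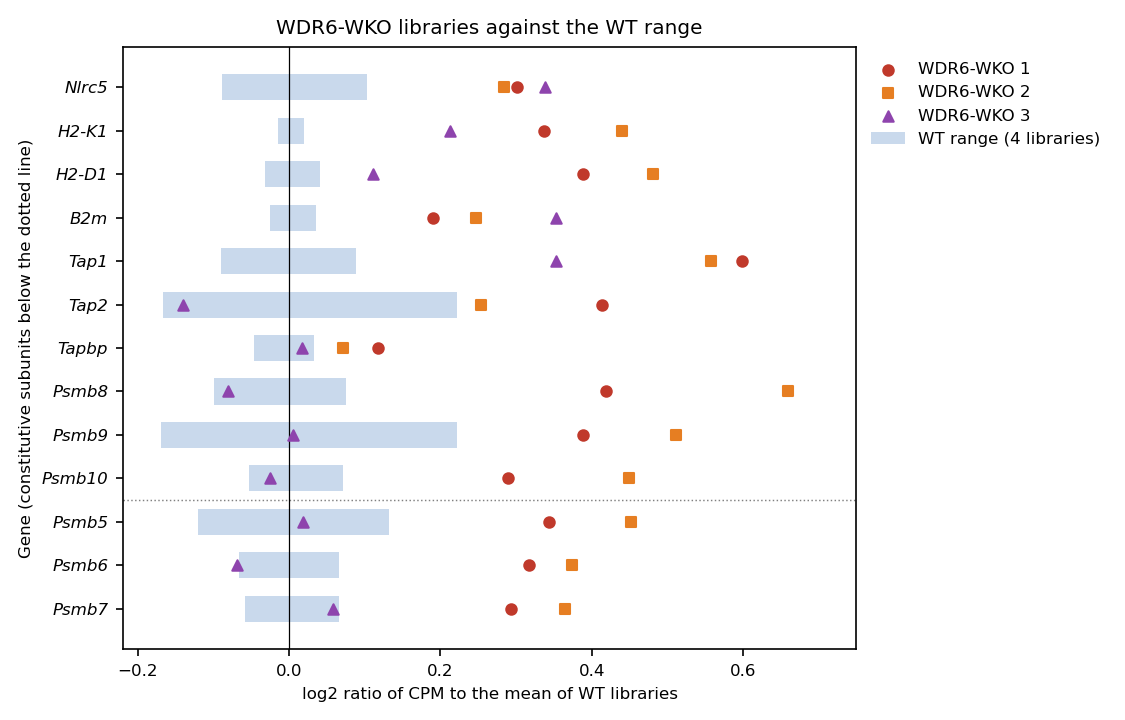
log2 ratio of CPM to the mean of the WT libraries (x axis) for each gene (rows) in each WDR6-WKO library (points), over the range of the 4 WT libraries (blue bars); the constitutive proteasome subunits are below the dotted line. WDR6-WKO replicate 3 leaves the WT range for *Nlrc5*, *H2-K1*, *H2-D1*, *B2m* and *Tap1*, and for the inducible subunits it stays within that range.

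The heavy chains, which carry the peptide groove, were 26.0% (*H2-K1*) and 26.2% (*H2-D1*) higher in WDR6-WKO. *H2-K1* was at 863, 843, 849 and 851 CPM in WT replicates 1 to 4 and at 1075, 1155 and 987 CPM in WDR6-WKO replicates 1 to 3. The ranges did not overlap, and the lowest knockout library was WDR6-WKO replicate 3. Group means were 851 ± 8.35 and 1072 ± 84.1 CPM (log2 fold change 0.33, standard error 0.05, adjusted p = 0.000467, exact two-sided permutation p = 0.0286). For 4 against 3 libraries, 0.0286 is the smallest p that the 35 splits allow.

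*H2-D1* was at 843, 821, 813 and 801 CPM in WT and at 1072, 1144 and 885 CPM in WDR6-WKO. WDR6-WKO replicate 3 lay closer to the highest WT library than to the other knockout libraries. Group means were 819 ± 17.6 and 1034 ± 134 CPM (log2 fold change 0.34, standard error 0.07, adjusted p = 0.00518, exact permutation p = 0.0286). Class I heavy chains share sequence, and 8.8% of the 50-base stretches of the longest *H2-K1* transcript and 14.3% of those of *H2-D1* occur in transcripts of other genes, so reads may have been counted on a neighbour. To make the level depend less on that assignment, the counts of 16 class I heavy chain genes of the H2 complex were summed. They were taken by symbol (H2-D1 and those starting H2-K, H2-Q, H2-T or H2-M) and include the pseudogene H2-T-ps. Class I genes under other symbols, and reads that the counting may have dropped, are not in this sum. *H2-K1* and *H2-D1* made up 75.5% of this sum. It was 2291, 2239, 2187 and 2180 CPM in WT and 2858, 2994 and 2467 CPM in WDR6-WKO, without overlap. The log2 difference was 0.31 (2224 ± 51.5 and 2773 ± 273 CPM, exact permutation p = 0.0286).

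*B2m*, the light chain that every class I molecule needs, was at 1157, 1188, 1154 and 1139 CPM in WT and at 1323, 1377 and 1481 CPM in WDR6-WKO. Here WDR6-WKO replicate 3 was the highest of the 7 libraries, in contrast to the heavy chains. The level was 20.2% higher in WDR6-WKO (1159.8 ± 20.5 and 1394 ± 80.2 CPM, log2 fold change 0.26, standard error 0.05, adjusted p = 0.00154, exact permutation p = 0.0286). Per kilobase of annotated exon (the union over all transcripts), *B2m* was the most abundant of the 10 genes in WT, at 1349 ± 23.8 CPM per kb, followed by *H2-D1* (318 ± 6.82) and *H2-K1* (290 ± 2.84). *Tapbp* (48.2 ± 1.14 CPM per kb) and *Psmb10* (17.9 ± 0.654) came next. *Tap2*, *Tap1*, *Psmb8* and *Nlrc5* lay between 4.49 and 5.17 CPM per kb, and the WT ranges of neighbours in that order overlapped. *Psmb9* was lowest, at 1.67 ± 0.203 CPM per kb. By this length no range overlapped that of the next gene in the order elsewhere. The order depends on the length used: per kilobase of the longest protein-coding transcript, a choice added after the data were seen, *H2-K1* (526 ± 5.16) came before *H2-D1* (389.9 ± 8.36), *Psmb8* and *Tap1* (9.77 ± 0.487 and 8.94 ± 0.459) came before *Tap2* (5.68 ± 0.679), and the ranges of *Tap2*, *Nlrc5* (5.03 ± 0.355) and *Psmb9* (4.51 ± 0.549) overlapped.

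Of the peptide transporter genes, *Tap1* rose and *Tap2* missed the threshold. *Tap1* had the largest fold change of the 10 genes. It was at 26.7, 24.8, 28.0 and 26.1 CPM in WT and at 39.9, 38.8 and 33.7 CPM in WDR6-WKO, with every knockout library above every WT library. The level was 42.2% higher (26.4 ± 1.36 and 37.5 ± 3.33 CPM, log2 fold change 0.51, standard error 0.08, adjusted p = 0.000374, exact permutation p = 0.0286). *Tap2*, which encodes the partner subunit and lies in the same cluster, was at 22.7, 19.9, 17.3 and 18.3 CPM in WT and at 25.9, 23.2 and 17.6 CPM in WDR6-WKO. WDR6-WKO replicate 3 lay within the WT range, and the difference missed the threshold (log2 fold change 0.19, standard error 0.12, adjusted p = 0.333, exact permutation p = 0.314). Without WDR6-WKO replicate 3, *Tap2* was called higher (log2 fold change 0.33, adjusted p = 0.00782), and without WDR6-WKO replicate 1 the log2 fold change was 0.06 (adjusted p = 0.826). *Tapbp*, the tapasin gene, was at 177, 175, 179 and 169 CPM in WT and at 189.9, 184 and 177 CPM in WDR6-WKO (log2 fold change 0.07, standard error 0.05, adjusted p = 0.366). It missed the threshold in that fit and in each of the 14 alternative fits. Some of these genes share exon sequence with genes on the opposite strand: 212 bases between *Tap1* and *Psmb9*, 533 between *Tap2* and Gm15821 and 904 between *Tapbp* and Gm19412. The sources used here do not say whether the counting used strand, so reads there cannot be told apart.

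The 3 inducible catalytic subunits, which interferon-γ brings into newly assembled proteasomes, each had 2 knockout libraries above and 1 within the WT range. *Psmb8* (β5i) was at 16.7, 16.1, 14.8 and 15.9 CPM in WT and at 21.2, 25.1 and 15.0 CPM in WDR6-WKO. *Psmb9* (β1i), the least abundant, was at 6.25, 5.39, 7.07 and 5.67 CPM in WT and at 7.94, 8.65 and 6.09 CPM in WDR6-WKO. *Psmb10* (β2i) was at 32.0, 30.4, 29.4 and 30.2 CPM in WT and at 37.2, 41.6 and 29.9 CPM in WDR6-WKO. WDR6-WKO replicate 2 was the highest library for each of the 3, and WDR6-WKO replicate 3 lay among the WT libraries for each. Over all 7 libraries the log2 fold changes were 0.37 for *Psmb8* (standard error 0.13, adjusted p = 0.0886), 0.32 for *Psmb9* (0.14, adjusted p = 0.166) and 0.25 for *Psmb10* (0.09, adjusted p = 0.0829). The exact permutation p was 0.171, 0.143 and 0.114. Without WDR6-WKO replicate 3 they were 0.54, 0.44 and 0.37, with adjusted p of 2.98e-05, 0.0197 and 9.68e-05. Without WDR6-WKO replicate 2 they were 0.20, 0.21 and 0.14, with adjusted p of 0.396, 0.512 and 0.405.

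Each inducible subunit takes the place of a constitutive one in the assembled core particle, *Psmb8* of *Psmb5*, *Psmb9* of *Psmb6* and *Psmb10* of *Psmb7*. For the constitutive subunits too, WDR6-WKO replicate 2 was the highest and replicate 3 the lowest of the knockout libraries. *Psmb5* was at 83.5, 74.8, 70.1 and 77.1 CPM in WT and at 96.7, 104 and 77.2 CPM in WDR6-WKO (log2 fold change 0.28, standard error 0.09, adjusted p = 0.0581). *Psmb6* had a log2 fold change of 0.22 (adjusted p = 0.112), and its WDR6-WKO replicate 3, at 81.8 CPM, lay just below the lowest WT library at 81.9 CPM. *Psmb7* rose by the test (84.2 ± 3.01 and 99.7 ± 10.8 CPM, log2 fold change 0.25, standard error 0.07, adjusted p = 0.0255), although WDR6-WKO replicate 3, at 87.6 CPM, lay below the highest WT library at 88.1 CPM. The ratio of inducible to constitutive subunit within each library does not depend on scaling. The mean log2 ratio of *Psmb8* to *Psmb5* was -2.26 ± 0.05 in WT and -2.20 ± 0.15 in WDR6-WKO, a difference of 0.06. That of *Psmb9* to *Psmb6* was -3.82 ± 0.15 and -3.73 ± 0.04, a difference of 0.09, which was 0.17 without WT replicate 3 and 0.06 without WT replicate 2. That of *Psmb10* to *Psmb7* was -1.47 ± 0.04 and -1.47 ± 0.08. None of the 3 differences passed an exact two-sided permutation test (p = 0.514, 0.343 and 1.0, adjusted over the 3 ratios 0.771, 0.771 and 1.0), so no shift from constitutive to inducible subunits was detectable with these libraries.

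**Figure D3:**
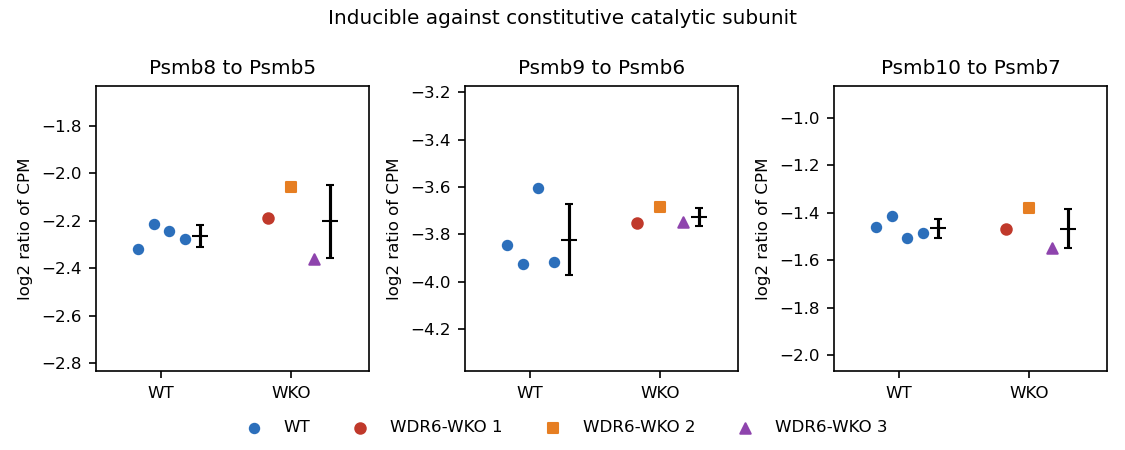
log2 ratio of the CPM of each inducible proteasome subunit to that of its constitutive counterpart (y axis, same span in each panel) in the WT and WDR6-WKO (WKO) libraries; points are libraries and bars give the mean ± s.d. The group means differ by 0.06 for *Psmb8* to *Psmb5*, by 0.09 for *Psmb9* to *Psmb6* and by less for the other pair, and the group ranges overlap in each panel.

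*Tap1* and *Psmb9* are neighbours on opposite strands, with GENCODE start sites 211 bases apart. Their 250-base RefSeq promoter windows, which end at other start sites, overlap by 225 bases. The log2 ratio of *Tap1* to *Psmb9* was 2.12 ± 0.10 in WT and 2.32 ± 0.15 in WDR6-WKO, a difference of 0.20 that did not pass the exact permutation test (p = 0.114). The difference was 0.13 without WDR6-WKO replicate 3 and 0.28 without WDR6-WKO replicate 2. WDR6-WKO replicate 3 had the highest ratio of the 7 libraries, 2.47, and WDR6-WKO replicate 2 lay within the WT range, at 2.17. *Tap1* was thus called and *Psmb9* was not, but a difference between their fold changes was not shown.

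*Nlrc5*, the class I transactivator, rose evenly. It was at 35.8, 35.9, 40.0 and 40.9 CPM in WT and at 46.9, 46.4 and 48.1 CPM in WDR6-WKO, with no overlap and with WDR6-WKO replicate 3 the highest of all. The level was 23.5% higher (38.1 ± 2.69 and 47.1 ± 0.915 CPM, log2 fold change 0.30, standard error 0.07, adjusted p = 0.00666, exact permutation p = 0.0286). Another 19 transcription factors that act on class I promoters or in interferon signalling were all tested, and their median log2 fold change was 0.02. Of these factors, 3 rose and 2 fell, beside 6.65% of all genes tested called higher and 6.18% lower. The 3 were *Stat2* and *Irf9*, which act downstream of the type I interferon receptor, and *Irf7*, the interferon regulatory factor that amplifies type I interferon production. *Irf7* was at 72.9, 66.4, 69.8 and 60.9 CPM in WT and at 133, 146 and 106 CPM in WDR6-WKO (log2 fold change 0.93, standard error 0.10, adjusted p = 7.71e-05). *Stat2* (log2 fold change 0.65, standard error 0.06) and *Irf9* (0.60, 0.07) rose too. All 3 knockout libraries exceeded all WT libraries for each of the 3 genes. The 3 calls held without any single library. *Irf9* was at 46.7, 51.1 and 53.2 CPM in the knockout libraries, with WDR6-WKO replicate 3 the highest.

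*Irf2*, a repressor of interferon-responsive promoters that also activates some class I genes, fell by 0.23 on the log2 scale (standard error 0.07, adjusted p = 0.0444), and *Nfyb*, a subunit of the factor that binds the Y box, fell by 0.25 (standard error 0.06, adjusted p = 0.0133). Leaving out 1 library ended the call of *Irf2* for 5 of the 7 libraries (all but WT replicate 1 and WDR6-WKO replicate 3) and that of *Nfyb* for WT replicate 4 and WDR6-WKO replicate 2. *Irf1*, 1 of the 14 factors not called and picked with its values known, was at 23.3 CPM in WT and 23.7 CPM in WDR6-WKO (log2 fold change 0.02, adjusted p = 0.896). Of 11 interferon and receptor genes, 6 were tested, and all 6 were receptor subunits. None rose and 2 fell, beside 6.18% of all genes tested called lower. The 2 were *Ifnar1*, by 0.22, and *Ifngr1*, by 0.20 on the log2 scale (standard errors 0.06 and 0.05, adjusted p = 0.0232 and 0.0132). Both calls were lost without WT replicate 4, WDR6-WKO replicate 1 or WDR6-WKO replicate 2, and that of *Ifnar1* also without WT replicate 3. With WDR6-WKO replicate 3 left out, 2 receptor genes were higher, beside 14.5% of all genes tested. The 5 interferon genes of the list had no row among those analysed here.

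The non-classical class I chains, which bind other ligands or are displayed in fewer tissues, included the highest fold changes among the class I chains. Of 18 listed, 15 were tested, 4 rose and none fell, beside 6.65% of all genes tested called higher. The median log2 fold change of these chains was 0.20. *H2-Q6* was at 19.3, 16.6, 17.8 and 16.7 CPM in WT and at 31.5, 33.2 and 24.9 CPM in WDR6-WKO (log2 fold change 0.76, standard error 0.10, adjusted p = 9.88e-05). *H2-Q7* (0.52, standard error 0.09), *H2-Q4* (0.51, 0.08) and *H2-T22* (0.29, 0.06) also rose. None of the 4 overlapped between the groups, and 11.8% of all genes tested were higher without overlap. Their calls held without any single library. These 4 are uncertain as single genes, because between 24.3% (*H2-Q4*) and 44.7% (*H2-T22*) of their 50-base stretches occur in transcripts of other genes. *H2-Q6* shares 13.9% with *H2-Q7*, and *H2-T22* shares 37.9% with *H2-T10*.

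Peptide loading and trimming lie between the proteasome and the finished class I molecule. Of 18 genes of peptide loading and trimming, 17 were tested, none rose and 2 fell, and the median log2 fold change was -0.13. Over all genes tested, 6.18% were called lower. The genes that fell were *Calr*, the calreticulin chaperone of the loading complex, by 0.14 on the log2 scale (967 ± 18.7 and 877 ± 31.2 CPM, adjusted p = 0.0470), and *Sec61a1*, the core of the channel into the endoplasmic reticulum, by 0.21 (adjusted p = 0.0047). The call of *Sec61a1* held without any single library, and that of *Calr* was lost without any 1 WT library or WDR6-WKO replicate 2. With WDR6-WKO replicate 3 left out, 3 of the 17 were higher and 10 lower, against 14.5% of all genes tested called higher and 14.1% lower. Of 9 proteasome counterparts and regulators, 1 rose and 1 fell, beside 6.65% of all genes tested called higher and 6.18% lower. *Psmb7* rose, and *Psme4*, the gene of the PA200 activator, fell by 0.24 (standard error 0.06, adjusted p = 0.0176). Both calls were lost without WT replicate 3, WT replicate 4, WDR6-WKO replicate 1 or WDR6-WKO replicate 2, and that of *Psmb7* also without WT replicate 2. Without WDR6-WKO replicate 3, 3 of the 9 were called higher, the constitutive catalytic subunits. The PA28 activator subunits *Psme1* and *Psme2*, among the 7 of the 9 not called, were also picked with their values known. The log2 fold change was -0.06 for *Psme1* (adjusted p = 0.532) and -0.02 for *Psme2* (adjusted p = 0.961).

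**Figure D4:**
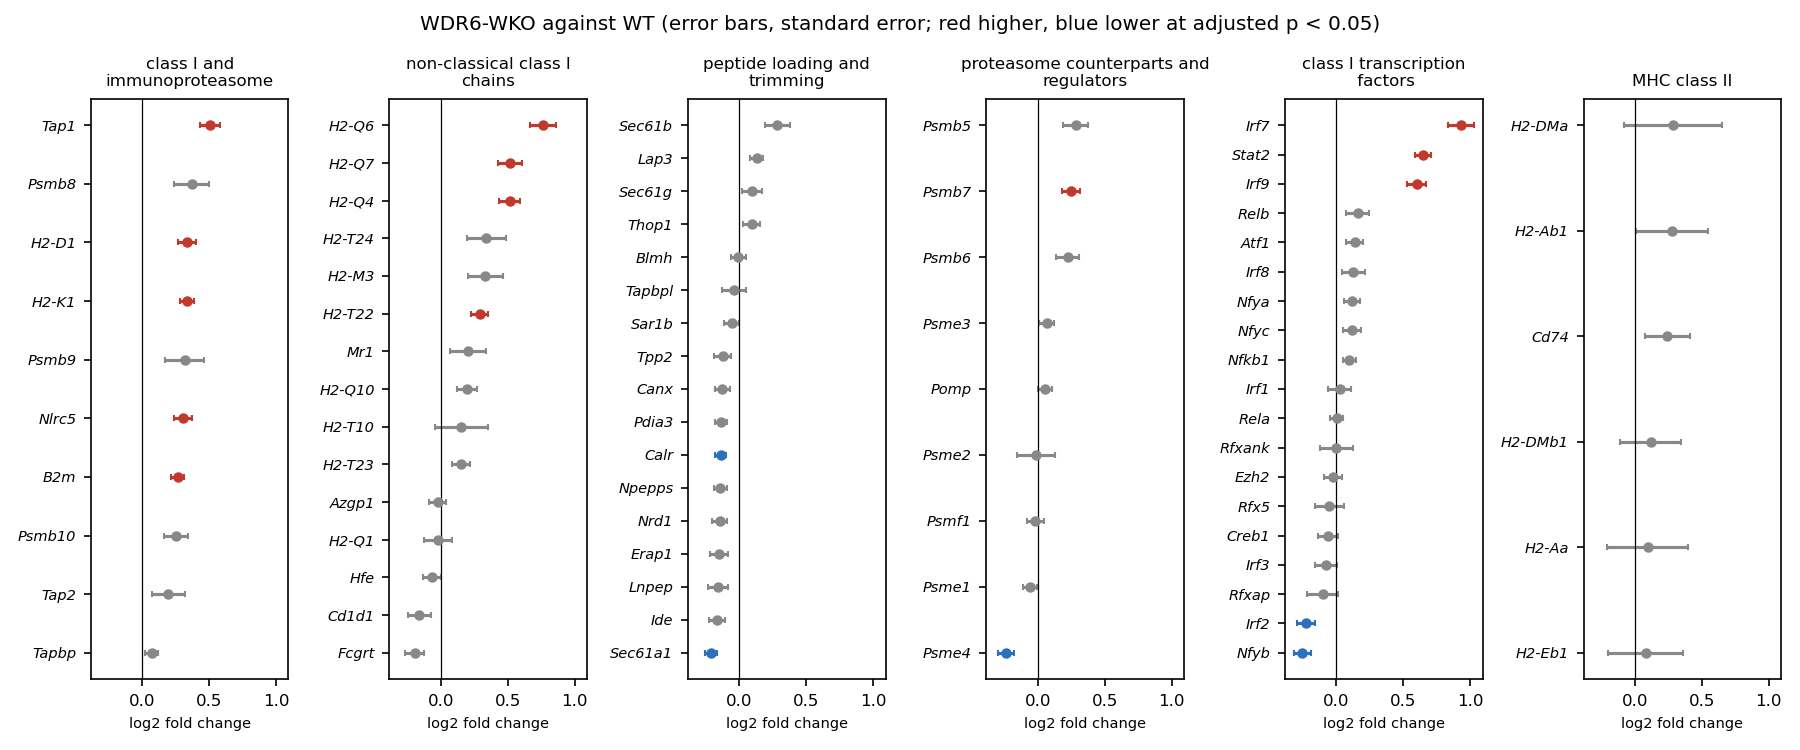
edgeR log2 fold change of WDR6-WKO against WT (x axis, same scale in each panel) for the tested genes of 6 lists (rows); error bars are standard errors, red marks genes called higher and blue genes called lower at an adjusted p under 0.05, and grey the rest. Red points lie among the class I chains, *Tap1*, *B2m*, *Nlrc5*, *Psmb7* and the factors *Irf7*, *Stat2* and *Irf9*, and the peptide loading and trimming panel holds none.

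MHC class II genes, which professional antigen-presenting cells use, were near the lower end of the table. Of 10 listed, 6 were tested and none was called in either direction. All 6 had a positive log2 fold change, with a median of 0.18. Their summed level was 10.79 to 12.82 CPM in the WT libraries and 12.80 to 14.55 CPM in the WDR6-WKO libraries. *Cd74*, the invariant chain, picked with its values known, was at 5.00 CPM in WT and 5.93 CPM in WDR6-WKO (log2 fold change 0.24, adjusted p = 0.366). The other 5 had group means between 1.09 and 1.90 CPM.

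Other liver cells of the preparation also use class I molecules, and some of their markers rose too. In these bulk libraries, more cells of a type and more RNA per cell cannot be told apart. All 18 Kupffer cell and macrophage markers were tested, and 6 rose and none fell, beside 6.65% of all genes tested called higher. The median log2 fold change of the markers was 0.23. The genes that rose were the myeloid integrin *Itgam* (log2 fold change 0.91), the Fc receptor *Fcgr1* (0.75), the lysozyme *Lyz2* (0.64), the complement genes *C1qc* (0.48) and *C1qb* (0.30) and the lipopolysaccharide co-receptor *Cd14* (0.18). Leaving out 1 library gave 4 to 10 markers higher, and *Itgam*, *Fcgr1*, *Lyz2* and *C1qc* were called each time. The 10 were without WDR6-WKO replicate 3, where 14.5% of all genes tested were called higher. *C1qb* and *Cd14* were not called without WT replicate 2 or WDR6-WKO replicate 1 or 2, nor *C1qb* without WT replicate 1, nor *Cd14* without WT replicate 3 or 4. The summed level of the list lay between 1092 and 1184 CPM in the WT libraries and between 1250 and 1464 CPM in the WDR6-WKO libraries. By library, the list's median log2 ratio to the WT mean was 0.17, 0.31 and 0.12 in WDR6-WKO replicates 1 to 3, beside 0.36, 0.44 and 0.06 for the class I and immunoproteasome genes. No marker was at 0. As checks of identity, 2 of the markers were also picked with values known. *Clec4f* was at 117 and 126 CPM (log2 fold change 0.10, adjusted p = 0.311) and *Timd4* at 3.65 and 2.59 CPM (log2 fold change -0.48, adjusted p = 0.0880). These 2 do not stand for the list: 16 of the 18 markers had a positive log2 fold change, and 2, *Timd4* among them, a negative one. The part of these cells in the class I values was not tested.

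**Figure D5:**
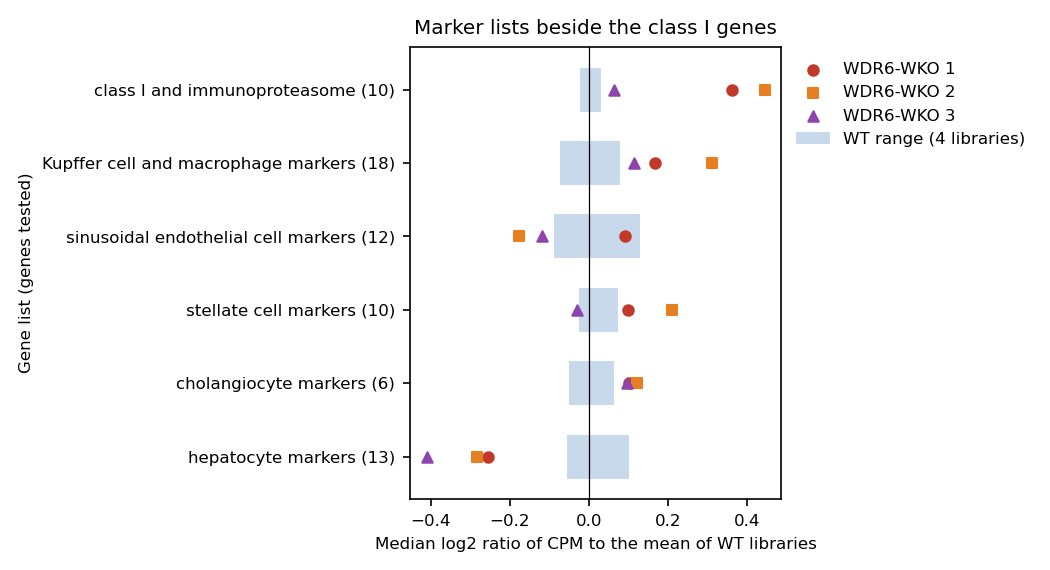
Median log2 ratio of CPM to the mean of the WT libraries (x axis) over the tested genes of each list (rows, number of genes in brackets) in each WDR6-WKO library (points), over the range of the 4 WT libraries (blue bars). The class I and immunoproteasome genes and the Kupffer cell and macrophage markers lie above the WT range in all 3 WDR6-WKO libraries, as do the cholangiocyte markers, and the hepatocyte markers lie below it.

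Among the other lists, 1 of 12 sinusoidal endothelial markers fell (*Tek*, log2 fold change -0.45) and none rose. Over all genes tested, 6.65% were called higher and 6.18% lower. Of 10 stellate cell markers, *Acta2* rose (0.33) and *Rgs5* fell by 0.48 on the log2 scale. With WDR6-WKO replicate 3 left out, 5 of the 10 rose, beside 14.5% of all genes tested. Of 6 cholangiocyte markers tested, *Spp1* (0.31) and *Sox9* (0.20) rose. The call of *Sox9* was lost without WT replicate 1, 2 or 3 or WDR6-WKO replicate 1 or 2, and that of *Tek* without WT replicate 3 or 4 or WDR6-WKO replicate 2. Summed endothelial levels were 472 to 536 CPM in WT and 449 to 524 CPM in WDR6-WKO, summed stellate levels 612 to 658 and 622 to 706 CPM, and summed cholangiocyte levels 3099 to 3394 and 3742 to 4337 CPM. The 17 listed lymphocyte and dendritic cell markers had no row among those analysed here. Of the 13 hepatocyte markers tested, 7 fell and none rose, beside 6.18% of all genes tested called lower. The 7 were *Pck1*, *Cps1*, *Apoa1*, *Fgb*, *Asgr1*, *Cyp2e1* and *Hnf4a*. Leaving out 1 library gave 5 to 8. The call of *Asgr1* was lost without any 1 library but WT replicate 1, and that of *Cyp2e1* without WT replicate 2 or 3 or WDR6-WKO replicate 1 or 2. The list's median log2 ratio by library was -0.25, -0.28 and -0.41, and the summed level lay between 15900 and 18860 CPM in the WT libraries and between 14307 and 16340 CPM in the WDR6-WKO libraries. The part of this fall in the class I values was not tested.

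Outside all lists, 5 genes followed the median profile of the 10 genes most closely over the 7 libraries, by Euclidean distance of log2 ratios to the WT mean among 14633 candidates. They were *Eif6* (distance 0.06), a ribosome assembly factor, *Ormdl3* (0.06), a regulator of sphingolipid synthesis, *Mrpl27* (0.09), a mitochondrial ribosomal protein, *Aurkaip1* (0.10) and *Trappc5* (0.10), a subunit of a vesicle tethering complex. *Eif6* was at 248, 258 and 194 CPM in the WDR6-WKO libraries and between 181 and 195 CPM in WT, so WDR6-WKO replicate 3 was within the WT range for it too. Likeness of profile was the rule by which these 5 were picked, and it carries no test.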

How the data were processed

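RNA from hepatocytes of WT (n = 4) and WDR6-WKO (n = 3) mice was sequenced, and the authors deposited the raw number of reads on each gene symbol as a count table. The submitters' processing notes name Bowtie2 2.2.3 and mm10. The counting tool, its annotation and its strand setting are not given in the sources used here, and the authors used DESeq2 for their own comparison. Libraries held 17816913 to 23668940 counts, and the smallest row total was 50. No pair of libraries of a group was a copy (at least 3.80 chi-square units per gene). The lowest Spearman correlation within a group was 0.992.

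Fold changes came from edgeR 4.0.16 in R 4.3.3 (TMM scaling, expression filter, robust quasi-likelihood test, Benjamini-Hochberg adjustment over the 14779 genes tested). The biological coefficient of variation was 7.40%. Single values and ratios were tested with an exact two-sided permutation of log2 CPM over 35 splits. Alternatives were DESeq2 1.42.0, limma-voom (limma 3.58.1), other scalings and filters, a replicate block, each library left out and the thresholds of the study's methods. The steps were tested on simulated data. The labels number replicates alike in both groups, but nothing ties same-numbered samples to one mouse.

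The 10 genes and all lists were chosen with earlier results of these data known. Genes named are these 10, list members with an adjusted p under 0.05, the constitutive catalytic subunits, *Wdr6* and the 5 nearest profiles, with exceptions marked. A gene of the transcription factor list is not reported here. The heavy chain sum was added after the data were seen. Positions and shared 50-base stretches come from GENCODE M21, and promoters from RefSeq (GRCm38.p6).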

Additional observations from a re-analysis of the deposited data

How the results depend on the processing

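The calls for *H2-K1*, *H2-D1*, *B2m*, *Tap1* and *Nlrc5* held in all 14 alternative fits, with log2 fold changes of 0.28 to 0.39, 0.26 to 0.43, 0.22 to 0.30, 0.46 to 0.58 and 0.28 to 0.34 and a highest adjusted p of 0.0338. WDR6-WKO replicate 3 decided the rest: leaving out each library gave 5 to 9 genes called and a median log2 fold change of 0.23 to 0.38, and *Tap2*, *Psmb8*, *Psmb9* and *Psmb10* were called only without it. The thresholds of the study's methods in the edgeR fit were unadjusted p under 0.05 and absolute log2 fold change of at least 0.35. They called 2 of the 10 genes, *Tap1* and *Psmb8*. Of 72 other pathway genes tested, 0 were lower (7 in the main test), and of 46 markers tested, 5 were higher (9). Over all genes tested, 6.42% were called higher at these thresholds, against 6.65% higher and 6.18% lower in the main test. Scaling by library sizes alone gave a median of 0.34, shifted all genes by 0.03 and called 1212 of 1908 genes higher, against 983 of 1897. Leaving out each library gave 7 to 17 other pathway genes higher, 1 to 15 lower, 6 to 17 markers higher and 1 to 3 lower. The highest counts were without WDR6-WKO replicate 3. Calls higher over all genes moved too, from 570 without WDR6-WKO replicate 2 to 2150 without WDR6-WKO replicate 3. These swings are therefore not particular to the lists. The other pathway genes lower were 3 without WT replicate 3 or WDR6-WKO replicate 1 and 1 without WT replicate 4 or WDR6-WKO replicate 2. The *Psmb9* to *Psmb6* difference lay between 0.06 and 0.17 and the *Tap1* to *Psmb9* difference between 0.13 and 0.28. The *Psmb8* to *Psmb5* difference turned to -0.012 without WDR6-WKO replicate 2 and ran up to 0.14 without WDR6-WKO replicate 3. The *Psmb10* to *Psmb7* difference lay between -0.044 and 0.040, and turned to 0.000703 and 0.017 without WT replicates 1 and 2 and to 0.000308 and 0.040 without WDR6-WKO replicates 1 and 3. With a replicate block, 5 of the 10 genes were called and 1762 genes in all. The calls of *Irf2*, *Calr* and *Asgr1* were lost with the block and with library sizes alone, those of *Irf2* and *Asgr1* also with limma-voom, and those of *C1qb* and *Cd14* with the block. Same-numbered samples share only a number (correlation of deviations 0.02 to 0.04). Without any 1 library the exact test of the heavy chain sum can no longer reach 0.05, and its log2 difference stayed between 0.26 and 0.40. The lowest count behind any value of the 10 genes was 103, for *Psmb9*. The causes of these changes were not tested.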
